A study of Mus musculus with 10 samples.

Results

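The genes described here are 10 Krüppel-like factor (KLF) genes, Klf3, Klf4, Klf5, Klf6, Klf7, Klf9, Klf10, Klf13, Klf15 and Klf16, in the ectoderm of the mouse forelimb bud. They were taken by gene symbol from a table of RNA sequencing counts for 55401 genes, and all 10 were found there. Peeled ectoderm of about 2 forelimb buds made each sample. The groups used were 3 libraries from E9.75 embryos (E, embryonic day) that the labels give as double knockouts of Sp8 with Sp6 (DKO), and 3 from wild-type (WT) littermates of the same age. The WT libraries are called WT 32, WT 53 and WT 56 after their columns, and the DKO libraries DKO 17, DKO 40 and DKO 41. The labels state neither the alleles, the strain nor which embryos were pooled, and 4 further samples at E10.5 were not analysed here.

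KLF proteins are transcription factors that share with the SP family, including Sp6 and Sp8, a C-terminal block of zinc fingers that binds GC-rich and CACCC-type DNA elements. Outside that block they differ. A CtBP subgroup (Klf3, with Klf8 and Klf12) recruits the co-repressor of that name, a Sin3 subgroup (Klf9, Klf10, Klf13 and Klf16, with Klf11 and Klf14) recruits the Sin3 co-repressor, and the members Klf4, Klf5, Klf6 and Klf7, with Klf1 and Klf2, act largely through acetyltransferases. In skin, Klf4 is known for the epidermal barrier and Klf5 for proliferating basal epithelium. Sp6 and Sp8 are needed in the limb ectoderm to form the apical ectodermal ridge, the thickened rim that drives outgrowth.

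Because SP and KLF factors read the same elements, the DNA just upstream of KLF genes is shown for 3 members that stand for the range of the data: Klf13, which fell in DKO, Klf15, whose libraries separated without passing the test, and Klf9, the member with a log2 fold change above 0. Each run is the 250 bases before the RefSeq start on GRCm38.p6, written 5′ to 3′ on the gene's strand. Capitals mark a GC box (GGGCGG) or a CACCC box (CCACCC) on either strand.
Klf13, chr7:63938916-63939165, minus strand: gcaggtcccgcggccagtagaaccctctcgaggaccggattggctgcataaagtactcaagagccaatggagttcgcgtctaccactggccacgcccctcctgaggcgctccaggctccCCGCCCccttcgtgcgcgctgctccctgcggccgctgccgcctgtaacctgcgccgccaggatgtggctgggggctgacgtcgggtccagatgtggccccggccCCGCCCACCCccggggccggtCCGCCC
Klf15, chr6:90462326-90462575, plus strand: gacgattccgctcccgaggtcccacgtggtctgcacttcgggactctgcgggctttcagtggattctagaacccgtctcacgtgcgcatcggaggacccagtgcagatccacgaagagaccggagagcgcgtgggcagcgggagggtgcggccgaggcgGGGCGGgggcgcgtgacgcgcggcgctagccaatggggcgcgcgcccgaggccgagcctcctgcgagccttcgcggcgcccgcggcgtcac
Klf9, chr19:23140976-23141225, plus strand: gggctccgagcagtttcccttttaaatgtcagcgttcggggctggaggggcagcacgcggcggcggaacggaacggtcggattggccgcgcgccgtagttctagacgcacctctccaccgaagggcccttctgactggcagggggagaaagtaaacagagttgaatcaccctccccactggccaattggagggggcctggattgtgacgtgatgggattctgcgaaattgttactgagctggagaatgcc

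The Klf13 window held 3 GC boxes, beginning 131, 27 and 6 bases before the start, and 1 CACCC box, beginning 23 bases before it, that shares bases with the middle GC box. The Klf15 window held 1 GC box at 91 bases, and the Klf9 window held neither motif. The set of RefSeq windows used here held 7 of the 10 members (not Klf5, Klf10 or Klf16). A GC box stood in 6 of the 7, against 32.7% of the 32851 windows in that set. A CACCC box stood in 3 of the 7, against 28.1%. The 7 windows had a GC content of 59.2% to 78.4%, and the median over all windows was 52.4%. Klf3, whose level overlapped between the groups, had the most GC boxes of the 7, with 6. A match is a run of letters and says nothing on whether a factor binds there.

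The libraries held 64432348 to 87040786 counts. Sp8, 1 of the targeted genes, was at 34.1, 43.2 and 31.3 CPM (counts scaled to library size) in WT 32, WT 53 and WT 56 and at 5.86, 2.38 and 2.80 CPM in DKO 17, DKO 40 and DKO 41 (log2 fold change -3.29, SE 0.302; edgeR adjusted p = 0.000806). Sp6 was at 228.5, 312 and 319.9 CPM in the WT libraries and at 133.2, 13.9 and 76.9 CPM in the DKO libraries in the same order. All DKO libraries lay below all WT libraries, but the fall of Sp6 did not pass the test (log2 fold change -1.94, SE 0.682; edgeR adjusted p = 0.207), and the counts do not show which part of the gene they cover. Of the 3841 exon bases of Sp6, 3329 are shared with Gm11532 on the opposite strand, which these libraries cannot separate. Of 12 ectoderm markers, 0 were at 0 counts in any library, and their summed level was 3357 to 3702 CPM in WT and 2428 to 3038 CPM in DKO. The sum of 12 mesenchyme markers was 325 to 453 CPM in WT and 510 to 712 CPM in DKO. Of the 12, all tested, edgeR called Meis1 and Meis2 higher and Pdgfra lower. In WT and DKO, Meis1 averaged 140.4 and 216.9 CPM, Meis2 80.5 and 166.2, and Pdgfra 66.6 and 7.66. The Meis1 call was lost without DKO 40 or any 1 WT library. Each DKO library lay above each WT library for 5 of the 12 and below for 1 (10.6% and 11.3% of all genes). The sum of 14 ridge markers was 2308 to 2866 CPM in WT and 327 to 652 CPM in DKO. The erythroid sum was 921.6 CPM in DKO 41, 303.6 in WT 53, 130.1 in DKO 40, 28.2 in DKO 17 and at most 2.31 in the other WT libraries. The sum of 8 neural crest and neuron markers ran from 111.4 to 154.4 CPM over the WT libraries and from 42.5 to 52.6 over the DKO libraries. This fall was mainly that of Tubb3 (group means 91.3 and 2.22 CPM), the only 1 of 7 tested that edgeR called. The log2 fold change was below 0 for 4 of the 7. Sox10 moved the other way, from a mean of 2.16 to 8.87 CPM, but its libraries overlapped (edgeR adjusted p = 0.103). Erbb3 averaged 34.4 and 32.5 CPM. The endothelial sum was low but higher in each DKO library, at 1.15 to 2.36 CPM in WT and 3.42 to 9.70 CPM in DKO. Of 6 endothelial markers tested, only Sox17 had separate groups, and 3 had a log2 fold change below 0. Sox17 rose from 0.196 ± 0.124 to 4.65 ± 3.10 CPM (SD, n = 3 each, edgeR adjusted p = 0.0123, lost without WT 32 or WT 56). Exons of Pdgfra, Meis1 and Sox17 share bases with genes on the opposite strand. The macrophage sum was 0.160 to 1.22 CPM over all libraries, with C1qa and Adgre1 at 0 counts in all 6. The endothelial marker Cdh5 was also at 0 counts in all 6. In bulk tissue, fewer cells of a type and less RNA per cell cannot be told apart.

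The 10 KLF genes were each tested on their own, and a difference in response between members was not tested. Klf13 and Klf10 fell in DKO, to 53.1% and 60.8% of their WT means, and 0 of the 10 rose. Over all 19126 genes tested, 2.81% fell and 1.70% rose, and among the 10952 genes that averaged at least 5 CPM, 3.56% fell and 1.84% rose. At an unadjusted p under 0.05, 3 of the 10 members differed, Klf10, Klf13 and Klf15, all lower, where 3448 of all 19126 genes differed, 9.36% lower and 8.66% higher. DESeq2 called these 3 lower and 0 higher (4.99% and 3.74% of all genes by that tool). All 10 passed the filter on low counts. For 5 members, Klf6, Klf10, Klf13, Klf15 and Klf16, each DKO library lay below each WT library, which was so for 11.3% of all genes tested, and for 0 members did each lie above (10.6% of all genes). The log2 fold change, DKO minus WT, was below 0 for 9 of the 10 and for 46.9% of all genes. Its median was -0.42 over the members and 0.030 over all genes.

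**Figure D1:**
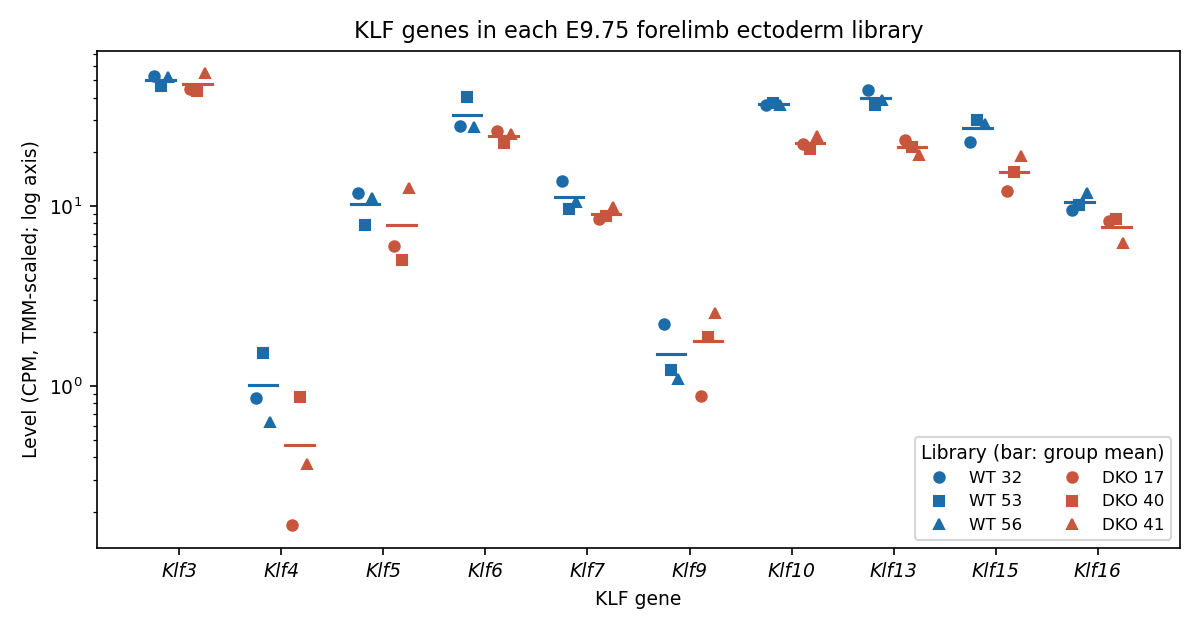
Level of each KLF gene in CPM (log axis) in the 3 WT (blue) and 3 DKO (red) libraries, with a bar at each group mean. Klf10 and Klf13 sit between 36.6 and 44.2 CPM in WT and between 19.2 and 24.6 CPM in DKO, while the groups overlap for Klf3, Klf4, Klf5, Klf7 and Klf9.

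Of the Sin3-recruiting members, Klf13 (ENSMUSG00000052040.10, GRCm38 chromosome 7, 63886351 to 63938915, minus strand), a factor first described as a regulator of the chemokine RANTES in T cells, had 44.2, 36.6 and 38.8 CPM in WT 32, WT 53 and WT 56. It had 23.2, 21.2 and 19.2 CPM in DKO 17, DKO 40 and DKO 41. The highest DKO library was thus well under the lowest WT library, and the libraries of each group lay close together. The means were 39.9 ± 3.90 and 21.2 ± 1.99 CPM (SD, n = 3 each), a 1.88-fold fall, with a log2 fold change of -0.92 (SE 0.154, 95% interval -1.26 to -0.57; edgeR adjusted p = 0.0128). The window printed above with 3 GC boxes belongs to this gene. With DKO 40, WT 32 or WT 56 left out, Klf13 no longer passed (adjusted p up to 0.0741), while its log2 fold change stayed between -0.99 and -0.86.

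Klf10 (ENSMUSG00000037465.10, chromosome 15, 38291463 to 38300706, minus strand), also named TIEG because it is an early gene of the TGF-beta response, had 36.7, 37.3 and 36.6 CPM in WT 32, WT 53 and WT 56. In DKO 17, DKO 40 and DKO 41 it had 22.0, 20.7 and 24.6 CPM. The WT libraries were nearly equal and all above the DKO libraries. The means were 36.9 ± 0.402 and 22.4 ± 1.98 CPM (SD, n = 3 each), a 1.64-fold fall (log2 fold change -0.71, SE 0.143, 95% interval -1.04 to -0.39; edgeR adjusted p = 0.0263). Leaving out any 1 library but DKO 41 ended the call (adjusted p up to 0.121), with log2 fold changes between -0.80 and -0.66.

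The other Sin3-recruiting members were not called. Klf16 (chromosome 10, 80567124 to 80577321), a small intron-poor KLF gene, had 9.56, 10.2 and 11.8 CPM in WT 32, WT 53 and WT 56 and 8.22, 8.43 and 6.23 CPM in DKO 17, DKO 40 and DKO 41. Its groups were separate but close, and the 95% interval of the log2 fold change ran from -0.97 to 0.027 (edgeR adjusted p = 0.305). Klf9 (chromosome 19, 23141226 to 23168134), known as a target of thyroid and glucocorticoid hormones, was low, with 2.21, 1.23 and 1.10 CPM in WT and 0.876, 1.88 and 2.54 CPM in DKO in the same order. Its libraries overlapped fully. A log2 fold change of 0.21 (95% interval -0.86 to 1.29; edgeR adjusted p = 0.868) leaves room for a change of either sign, and it was -0.18 without DKO 41 and -0.013 without WT 56.

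Klf15 (ENSMUSG00000030087.11, chromosome 6, 90462576 to 90475238, plus strand), a factor of metabolic tissues and of the glucocorticoid response that stands outside the 3 subgroups, had the next smallest p-value. It had 22.8, 30.1 and 28.5 CPM in WT 32, WT 53 and WT 56 and 12.1, 15.4 and 18.9 CPM in DKO 17, DKO 40 and DKO 41. The groups did not overlap, but the libraries of each spread more widely than those of Klf10. The means were 27.1 ± 3.85 and 15.5 ± 3.37 CPM (SD, n = 3 each), a 1.76-fold difference. Its log2 fold change of -0.81 (SE 0.208, 95% interval -1.28 to -0.34) did not pass the threshold over all genes (edgeR adjusted p = 0.0674). DESeq2 called it (adjusted p = 0.00509), as did edgeR without DKO 41 (log2 fold change -0.99, adjusted p = 0.0449). Those were 2 of the 12 alternative settings. With any other library left out edgeR did not call it (adjusted p up to 0.233). Nor did edgeR call it without the filter on low counts (0.124) or with legacy=TRUE, another setting of the fit (0.101).

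**Figure D2:**
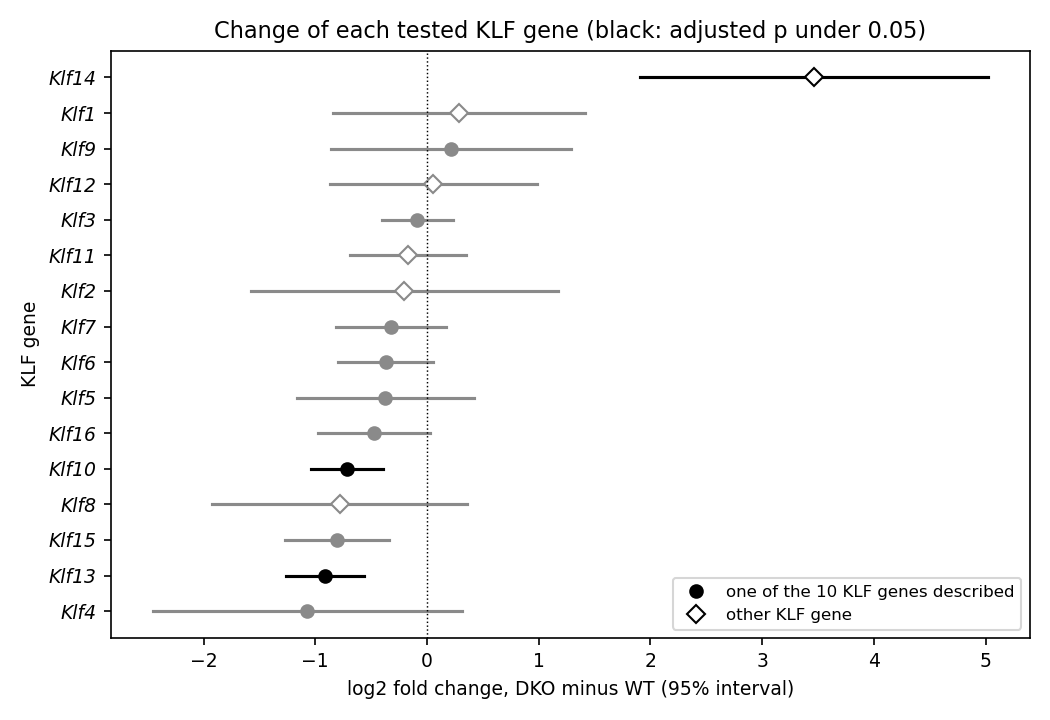
Log2 fold change, DKO minus WT, of each KLF gene tested, with its 95% interval from the edgeR fit; filled circles are the 10 genes described, open diamonds the other 6, and black marks an adjusted p under 0.05. Klf10 and Klf13 lie left of 0 with short intervals, Klf15 lies between them without passing, and Klf14 lies far to the right at 3.46.

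Klf3 (ENSMUSG00000029178.14, chromosome 5, 64803388 to 64832901, plus strand), the CtBP-recruiting member and a repressor known from erythroid, fat and epidermal cells, gave the narrowest bound on a change. It had 52.8, 46.5 and 52.2 CPM in WT 32, WT 53 and WT 56 and 44.5, 43.6 and 54.7 CPM in DKO 17, DKO 40 and DKO 41. The DKO range enclosed the WT range. Its log2 fold change was -0.086 with a 95% interval from -0.41 to 0.23 (edgeR adjusted p = 0.815). This interval does not contain the fitted changes of Klf10, Klf13 or Klf15, but it overlaps the 95% intervals of Klf10 and Klf15. A difference between Klf3 and these genes was not tested. A 404-base stretch of Klf3 exons is shared with Gm20033 on the opposite strand, which these libraries cannot separate, but that gene was at no more than 0.403 CPM in any library.

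A count ratio within a library needs no scaling between libraries, so Klf3 was used as a denominator, a choice made after its values were seen. Klf13 counts were 0.836, 0.788 and 0.744 of Klf3 counts in WT 32, WT 53 and WT 56, and 0.521, 0.486 and 0.351 in DKO 17, DKO 40 and DKO 41. For Klf10 the ratios were 0.694, 0.804 and 0.702 in WT and 0.494, 0.475 and 0.450 in DKO. For Klf15 they were 0.432, 0.649 and 0.546 in WT and 0.273, 0.352 and 0.345 in DKO. In each of the 3 the DKO ratios lay below the WT ratios. Numerators and denominator were picked for their values, so these ratios describe the libraries and are no separate evidence.

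The acetyltransferase-linked members Klf4, Klf5, Klf6 and Klf7 were not called. Klf6 (chromosome 13, 5861482 to 5870394), a widely expressed injury-response gene, had 27.9, 40.3 and 27.5 CPM in WT 32, WT 53 and WT 56 and 26.0, 22.4 and 25.2 CPM in DKO 17, DKO 40 and DKO 41. The groups were separate by a narrow margin, and WT 53 alone stood high. Its log2 fold change was -0.37 (95% interval -0.79 to 0.057; edgeR adjusted p = 0.353), and -0.18 at its smallest with 1 library left out. Klf7 (chromosome 1, 64029447 to 64122282), best known from sensory neurons, had 13.8, 9.60 and 10.47 CPM in WT and 8.49, 8.83 and 9.88 CPM in DKO in the same order. Its groups overlapped slightly (log2 fold change -0.32, 95% interval -0.81 to 0.17; edgeR adjusted p = 0.502). The antisense gene Gm26649 shares 3196 bases of Klf7 exons, and reads from that stretch cannot be assigned to either strand.

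Klf5 (chromosome 14, 99298691 to 99315036), the basal-epithelium factor, did not separate by genotype. It had 11.8, 7.82 and 11.1 CPM in WT 32, WT 53 and WT 56, and 6.03, 5.01 and 12.6 CPM in DKO 17, DKO 40 and DKO 41. DKO 41 held more Klf5 than any WT library, while the other DKO libraries held less than any. DKO 41 also had the highest erythroid sum. Among the DKO libraries it had the highest ectoderm sum as well, at 3038 CPM against 2721 in DKO 17 and 2428 in DKO 40. The same held for the keratin genes Krt5 (65.0 against 12.7 and 8.09 CPM) and Krt14 (56.2 against 34.9 and 22.5 CPM). The part of these in the Klf5 value was not tested. With all 6 libraries, Klf5 had a log2 fold change of -0.37 (95% interval -1.16 to 0.42; edgeR adjusted p = 0.656), and of -0.91 without DKO 41 (adjusted p = 0.111).

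Klf4 (chromosome 4, 55527143 to 55532466), the epidermal barrier and pluripotency factor, was near the lower end of detection. It had 74, 97 and 55 counts, or 0.857, 1.53 and 0.630 CPM, in WT 32, WT 53 and WT 56. In DKO 17, DKO 40 and DKO 41 it had 14, 66 and 33 counts, or 0.168, 0.863 and 0.370 CPM. DKO 40 overlapped the WT range and the other DKO libraries lay below it. Its log2 fold change of -1.07 had the widest 95% interval of the members (-2.46 to 0.31; edgeR adjusted p = 0.411), so a difference was not resolved at these counts. Of its partners in the pluripotency network, 7 of 8 listed were tested, 1 fell and 0 rose. That gene, Sox2, went from 1.34 ± 0.580 to 0.0782 ± 0.0780 CPM (SD, n = 3 each; edgeR adjusted p = 0.00931, lost without DKO 40 or WT 56 and with legacy=TRUE).

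To compare levels between members, CPM were divided by kilobases of exon. In WT the highest level per kilobase was that of Klf15, at 9.73 ± 1.38 CPM per kb, followed by Klf10 (8.83 ± 0.0961) and Klf6 (7.27 ± 1.66; SD, n = 3 each). The libraries of these 3 overlapped, so their order is not resolved. Klf13 (5.30 ± 0.518 CPM per kb) lay below them and above Klf3 (4.49 ± 0.312), and Klf3 and Klf16 (3.94 ± 0.443) overlapped. Next came Klf5 (1.97 ± 0.406 CPM per kb) and Klf7 (1.39 ± 0.270), which overlapped each other and lay below Klf16. Klf4 and Klf9 were last, at 0.330 ± 0.154 and 0.314 ± 0.126 CPM per kb, and did not differ beyond their spread. In DKO, Klf6 (5.59 ± 0.427), Klf15 (5.54 ± 1.21) and Klf10 (5.37 ± 0.474 CPM per kb) came first with overlapping libraries, and Klf13, at 2.81 ± 0.264 CPM per kb, overlapped Klf16 (2.85 ± 0.454). The summed level of the 10 was 42.1, 45.1 and 43.3 CPM per kb in WT 32, WT 53 and WT 56 and 28.1, 28.1 and 32.4 CPM per kb in DKO 17, DKO 40 and DKO 41. Klf13 made up 12.2% of the summed group means in WT and 9.52% in DKO, and Klf3 10.3% and 14.3%. Dividing by the longest transcript in place of all annotated exons put Klf10 first and raised Klf3 from rank 5 to rank 3 in WT. By that length Klf3 came first in DKO, at 9.12 ± 1.17 CPM per kb and 23.5% of the sum, with each of its libraries above those of Klf10 (7.37 ± 0.651), and Klf13 was at rank 5 in both groups.

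**Figure D3:**
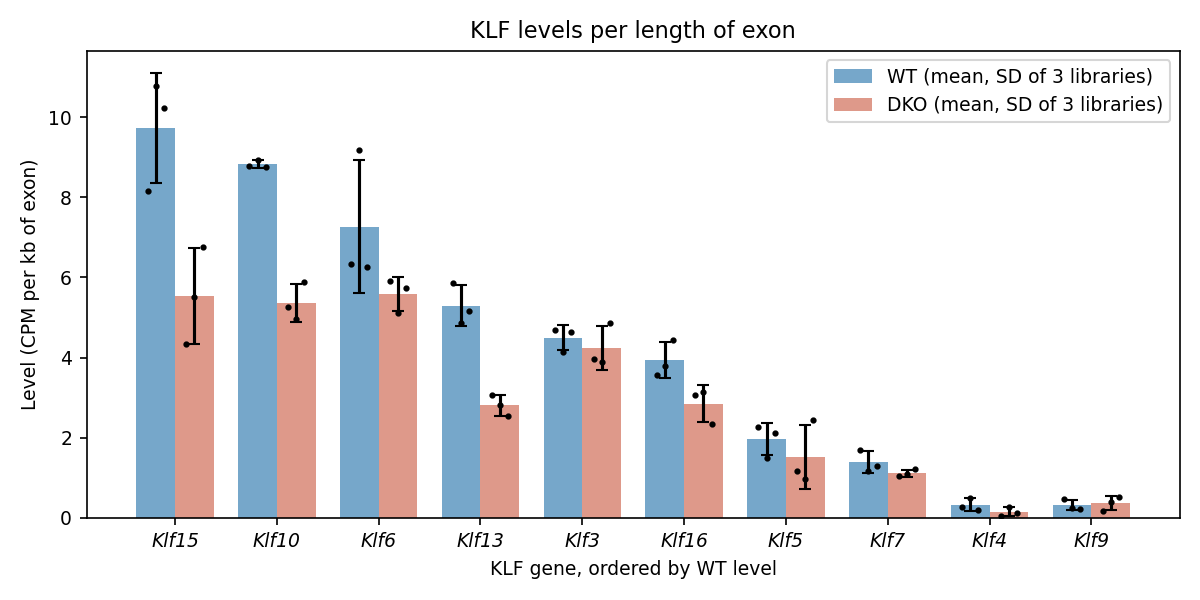
Level of each KLF gene in CPM per kb of exon, ordered by WT level; bars are means of 3 libraries, error bars SD and points the libraries. Klf15, Klf10 and Klf6 form the top of the WT order with overlapping libraries, and Klf4 and Klf9 are below 0.6 CPM per kb in each library.

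Of the 7 other KLF genes, 6 were tested, 0 fell and 1 rose. Klf14, a single-exon gene of the Sin3-recruiting subgroup (ENSMUSG00000073209.4, chromosome 6, 30956023 to 30959078, minus strand), had 13, 0 and 5 counts in WT 32, WT 53 and WT 56 and 88, 56 and 68 in DKO 17, DKO 40 and DKO 41. Each DKO library lay above each WT library. The means were 0.0693 ± 0.0760 and 0.850 ± 0.179 CPM (SD, n = 3 each), 12.3-fold higher in DKO from a level close to 0 (log2 fold change 3.46, SE 0.718; edgeR adjusted p = 0.0185). The call was lost without DKO 40 or any 1 WT library (adjusted p up to 0.177), and with legacy=TRUE, another setting of the edgeR fit (0.153). Klf11, the closest relative of Klf10, had 9.69 to 13.1 CPM in WT and 8.13 to 12.2 CPM in DKO (log2 fold change -0.17, edgeR adjusted p = 0.772). Klf8 and Klf12 were between 0.711 and 5.99 CPM and overlapped. Klf1, the erythroid KLF and 1 of the 12 genes of the erythroid sum, lay between 0.475 and 1.24 CPM. It was highest in DKO 41, next in WT 53 and lowest in WT 32. The erythroid sum, from 1.80 to 921.6 CPM, was highest, next and lowest in the same libraries. Klf2, the endothelial KLF, was at no more than 0.261 CPM. Klf17, an early-embryo gene, had 0 counts.

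Among the 9 SP genes, 3 fell and 0 rose. Besides the targeted Sp8 these were Sp9, a ridge factor that went from 2.72, 3.84 and 4.67 CPM in the WT libraries to 0.324, 0.562 and 0.134 CPM in DKO, and Sp7, best known from bone, from 6.33 to 7.18 CPM in WT to at most 0.0784 CPM in DKO. Exons of Sp9 share 270 bases with Cir1 on the opposite strand. The fitted changes of the widely expressed Sp1, Sp2, Sp3 and Sp4 were 0.22, -0.24, -0.36 and -0.92 on the log2 scale and none passed the edgeR test (adjusted p from 0.253 to 0.658). Likeness of profiles was measured as the root mean square difference between log2 CPM over the 6 libraries, each gene centred on its mean. By this measure Klf10 and Klf13 were each other's nearest of the 24 other SP and KLF genes tested (0.189), and Klf10 was also the nearest to Klf15 (0.199) and to Klf16 (0.262). Klf3 and Klf6 lay nearest to Sp2 (0.130 and 0.188), Klf5 and Klf7 to Sp3 (0.294 and 0.131), Klf4 to Sp4 (0.514) and Klf9 to Klf12 (0.443). Over 10281 protein-coding genes that averaged at least 5 CPM, the nearest to Klf10 were Kntc1 (0.0351), Cd9 (0.0438) and Sh3d19 (0.0496), and the nearest to Klf13 were Socs3 (0.0672), Pdia4 (0.101) and Cpne2 (0.107). With 6 libraries, many genes can lie this close.

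The proteins through which KLF factors act showed few calls. Of 7 CtBP co-repressor genes tested, 0 were called by edgeR (4 at an unadjusted p under 0.05, which 3448 of all 19126 genes reached; DESeq2 called 1 lower and 1 higher), and of 13 Sin3 complex genes 0 were called (2 unadjusted; DESeq2 1 lower). Of 4 acetyltransferase genes, Kat2b fell from 2.10 ± 0.843 to 0.327 ± 0.144 CPM (SD, n = 3 each; edgeR adjusted p = 0.0308), lost without DKO 17, DKO 40, WT 32 or WT 53 and without the filter on low counts. Of 8 genes that control KLF stability or share its pathway, such as the ubiquitin ligases Wwp1 and Fbxw7, 0 were called by edgeR or DESeq2 (1 unadjusted).

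The signals known to induce KLF genes were read from 4 lists. In the TGF-beta list, which holds known inducers of Klf10, 1 of 15 tested genes fell and 0 rose (median log2 fold change -0.20; DESeq2 3 lower). The ligand gene Tgfb1 had 7.31, 6.30 and 6.91 CPM in WT 32, WT 53 and WT 56 and 0.816, 1.93 and 0.628 CPM in DKO 17, DKO 40 and DKO 41, far apart (log2 fold change -2.65, SE 0.372; edgeR adjusted p = 0.00609). This call held with each library left out in turn, but not without WT 32 and DKO 41 together (adjusted p = 0.0622). Of 10 tested genes of the glucocorticoid and thyroid list, which bears on Klf9 and Klf15, 1 fell and 1 rose (DESeq2 1 lower and 2 higher). The glucocorticoid receptor gene Nr3c1 had 8.73, 6.43 and 8.55 CPM in WT and 0.996, 1.18 and 2.94 CPM in DKO (log2 fold change -2.20, SE 0.378; edgeR adjusted p = 0.0141), which did not pass with DKO 40, WT 32 or WT 56 left out. The thyroid hormone receptor gene Thrb rose from 0.0926, 0.0790 and 0 CPM in the WT libraries to 0.636, 0.484 and 0.493 CPM in DKO (edgeR adjusted p = 0.0401), a call lost without any 1 of the 6 libraries, without the filter on low counts, with legacy=TRUE and with DESeq2 (adjusted p = 0.0832). The 2 genes that DESeq2 called higher, named after their values were seen, were the thyroid hormone receptor gene Thra (adjusted p = 0.0155; edgeR 0.0954) and the glucocorticoid-induced gene Tsc22d3 (0.0106; edgeR 0.0745). Tsc22d3 had 75.7, 63.7 and 63.7 CPM in WT 32, WT 53 and WT 56. It had 83.0, 108 and 103 CPM in DKO 17, DKO 40 and DKO 41, without overlap. Each DKO library lay above each WT library for 3 of the 10 genes and below for 4 (10.6% and 11.3% of all genes). Among the 4 were Fkbp5 (means of 77.1 CPM in WT and 56.7 CPM in DKO), Sgk1 (3.37 and 1.48) and Dusp1 (21.5 and 18.4). Neither edgeR nor DESeq2 called these. Of 15 tested clock genes, several of which cycle together with Klf9, Klf10 and Klf15 in other tissues, edgeR called 0 (6 at an unadjusted p under 0.05, against 3448 of all 19126 genes; DESeq2 3 lower and 1 higher).

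Klf4, Klf6 and Klf10 belong to the genes that respond within minutes to serum, stress or tissue dissociation, and the ectoderm had been held in 0.25% trypsin for 20 min. Of 17 immediate early genes tested, 3 fell and 0 rose, against 2.81% and 1.70% of all genes. The median log2 fold change was -0.45, against 0.030 over all genes. For 9 of the 17, each DKO library lay below each WT library (11.3% of all genes). For 1, the stress-response gene Atf3, each lay above, at 1.40, 2.15 and 1.95 CPM in WT and 10.6, 5.25 and 3.42 CPM in DKO in the order used above (log2 fold change 1.82, SE 0.490; edgeR adjusted p = 0.0755). Atf3, named here after its values were seen, passed with DESeq2 (adjusted p = 0.00317) and with edgeR without DKO 41 (0.0326). DESeq2 called 5 genes of this list lower and 1 higher. The nuclear receptor gene Nr4a1 had 13.0, 17.1 and 11.7 CPM in WT 32, WT 53 and WT 56 and 5.08, 6.25 and 5.22 CPM in DKO 17, DKO 40 and DKO 41 (edgeR adjusted p = 0.0165). Jun fell 1.82-fold, from 30.3 ± 5.53 to 16.7 ± 2.47 CPM (SD, n = 3 each; edgeR adjusted p = 0.0416). Egr3 fell from 0.706 ± 0.189 CPM to 0 counts in DKO, at least 58.3-fold against a floor of 3 counts over the group (edgeR adjusted p = 0.0238). These calls were lost without DKO 40 or WT 32, and those of Jun and Egr3 also without DKO 17 or WT 56 and that of Egr3 without WT 53. Without the filter on low counts neither Jun nor Egr3 passed (0.0929 and 0.0671), nor did Jun with legacy=TRUE (0.0679). Exons of Jun share 232 bases with the antisense gene Junos. The summed level of the 19 listed genes was 574 to 599 CPM in WT and 470 to 546 CPM in DKO, which moved the same way as Klf10 and Klf13. Its part in the fall of these genes was not tested.

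Genes reported as KLF4 or KLF5 targets in epithelia moved both ways. Of 17 tested, 5 fell and 2 rose, against 2.81% and 1.70% of all genes. The median log2 fold change was -0.18, against 0.030 over all genes. The phosphatase gene Alpl had 98.9, 144.6 and 136.2 CPM in WT 32, WT 53 and WT 56 and 20.9, 23.9 and 33.4 CPM in DKO 17, DKO 40 and DKO 41 (edgeR adjusted p = 0.000855). The transglutaminase gene Tgm1, which cross-links the barrier, fell 6.81-fold from 27.9 ± 7.45 CPM (SD, n = 3; edgeR adjusted p = 0.00288). The cell-cycle inhibitor gene Cdkn1a fell 2.22-fold from 161.5 ± 23.6 CPM (edgeR adjusted p = 0.0101; lost without DKO 40 or WT 56). Exons of Tgm1 and Cdkn1a share 182 and 273 bases with genes on the opposite strand. The keratin gene Krt19 rose 2.70-fold from 151.5 ± 11.8 CPM (edgeR adjusted p = 0.00596). Klf4 and Klf5 themselves were not called, and the ridge and ectoderm marker sums given above differed between the groups as well, so the part of these in the target values was not tested.

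The calls of the 2 members that fell depended on which libraries entered. Without WT 32 and DKO 41 together, the libraries with the most mesenchyme transcript within WT and the most globin transcript, Klf13 had a log2 fold change of -0.80 (edgeR adjusted p = 0.109), Klf10 of -0.82 (0.0978) and Klf15 of -1.13 (0.0673). The number of members called lower was then 0. With 1 library left out it was 0 for DKO 40, for WT 32 and for WT 56, 1 for DKO 17 and for WT 53, and 3 for DKO 41. The 3 genes were lower in DKO in each of these fits. Of the other genes named above, Klf14, Tgfb1, Thrb, Nr4a1, Jun, Egr3, Kat2b, Sox2, Krt19, Pdgfra and Meis1 also did not pass without WT 32 and DKO 41.

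**Figure D4:**
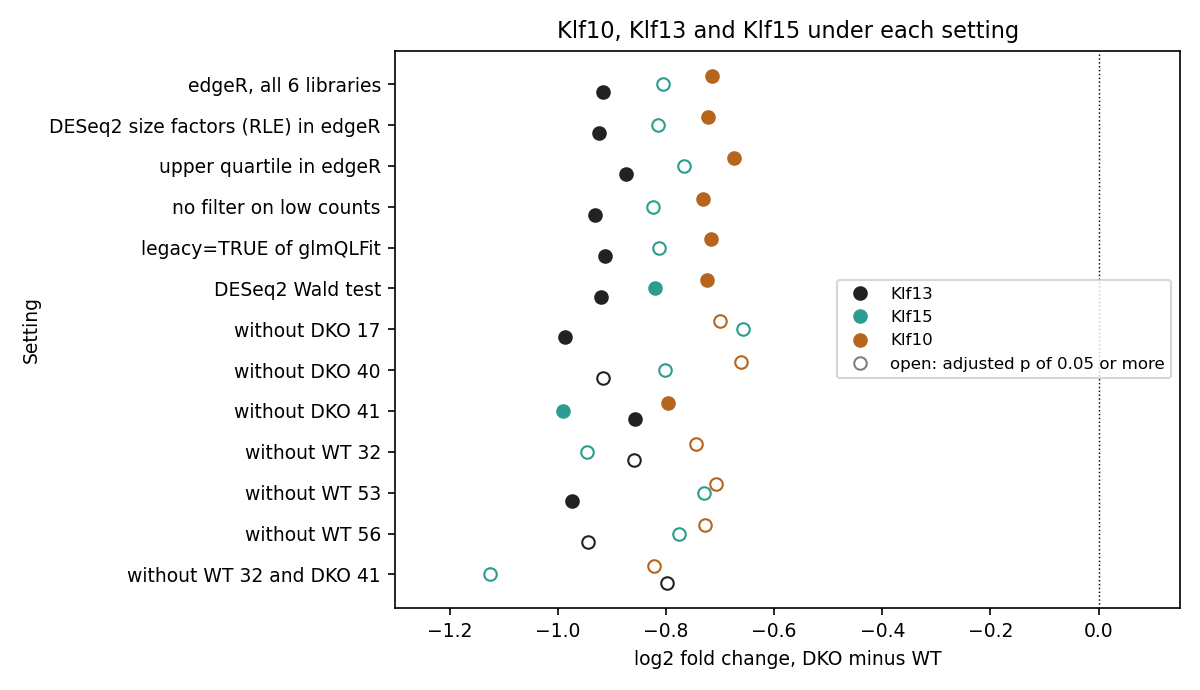
Log2 fold change, DKO minus WT, of Klf10, Klf13 and Klf15 under each setting; filled points passed an adjusted p of 0.05 and open points did not. The values stay between -1.13 and -0.66, and most fits with a library left out have open points.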

How the data were processed

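The authors deposited whole-number counts per gene, not normalized. FastQC, fastp, HISAT2, Cufflinks, StringTie and DESeq2, with GRCm38 and mm10, are named in the submitters' processing notes; versions and the step that counted are not given in the sources used. Per the labels' protocols, libraries were SMART-Seq v4 with Nextera XT, a chemistry that marks neither strand nor molecules, so PCR copies count as reads. Floors cover counting error only. The 95% intervals come from the edgeR fit and cover counting error and the spread among these libraries. Columns named DKO and WT were taken as the E9.75 groups; their numbers match no replicate number of the labels. Littermates are named but not matched, so a p-value covers only the spread among these libraries, which may be technical. Each pair of libraries differed by more than sampling noise (chi-square per degree of freedom at least 56.2).

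The main test was edgeR 4.0.16 in R 4.3.3 (quasi-likelihood test by glmQLFit, robust, legacy=FALSE; TMM scaling; filterByExpr), with Benjamini-Hochberg adjustment over 19126 genes and a threshold of 0.05. SE is the log2 fold change over the square root of F. CPM are TMM-scaled; log2 CPM used a prior count of 2. Folds are ratios of group means. Exon lengths and positions came from GENCODE M21 (99.53% of identifiers matched), promoter windows from RefSeq. The edgeR script was tested on simulated counts. DESeq2 1.42.0, other scalings, no filter, legacy=TRUE and left-out libraries were the alternatives.

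The members, the 20 lists and the settings were chosen with earlier results of these data known. All members were named; from each list, genes called, at most 4 by adjusted p.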

Additional observations from a re-analysis of the deposited data

How the results depend on the processing

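The number of KLF members called lower was 2 under the other scalings, without the filter and with legacy=TRUE, 3 with DESeq2, 0 to 3 with 1 library left out and 0 without WT 32 and DKO 41 together. With 1 library left out, the log2 fold change of Klf10 was -0.80 to -0.66 and that of Klf13 -0.99 to -0.86; without WT 32 and DKO 41 they were -0.82 and -0.80. Over all genes, 538 fell and 325 rose in the main test, 296 and 116 without the filter, 346 and 200 with legacy=TRUE, 955 and 715 with DESeq2 and 282 and 95 without WT 32 and DKO 41. With 1 library left out, 194 (without WT 56) to 592 (without DKO 41) fell and 53 (without WT 56) to 332 (without DKO 17) rose. Fits with fewer libraries have fewer degrees of freedom. The cause of the other moves was not tested.

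Among the 25 SP and KLF genes tested, the only genes checked for this, changes of sign occurred in 4, none of them called. With 1 library left out, the log2 fold change was -0.18 to 0.60 for Klf9, -0.15 to 0.53 for Klf1, -0.63 to 0.081 for Klf2 and -0.23 to 0.58 for Klf12. Without WT 32 and DKO 41 it was -0.42 for Klf1 and 0.31 for Klf2. The other scalings moved the median of all genes by at most 0.042 on the log2 scale. No paired analysis was possible because the columns carry no replicate number of the labels. Depth limits the low genes: over the 3 libraries of each group, Klf2 had 45 counts in WT and 41 in DKO, Klf1 165 and 212, Klf14 18 and 212, and Klf4 226 and 113.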
